A study of Homo sapiens with 21 samples.

Results

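The regions described here are the exon bins that lie nearest the start of a gene in RNA sequencing of K562 cells. An exon bin is a non-overlapping piece of exon, bounded wherever annotated transcripts of the gene differ, and its value is the number of reads over it. Bins were chosen by place and by measured count: a bin was taken when its gene had a single-gene identifier, was protein-coding in GENCODE 29 and had 10 or more bins, when the bin fell in the first 10% of the gene by bin number in the direction of transcription, and when its mean count over the 12 libraries was 10 or more. These rules gave 6680 bins in 3462 genes, of 685251 bins in all. The 12181 eligible genes held 35072 first-10% bins, of which 28392 fell below the minimum and 11457 were 0 in every library. The share at or above the minimum was 19.05% in the first 10% against 40.1% over all bins of the eligible genes. Among the genes with members, 1780 had 1 member, 893 had 2, 437 had 3 and 352 had 4 or more, up to 16. The mean count over all libraries chose the members, so the level itself is no finding, and bins of 1 gene share its reads and are not replicates. Bins of RECQL5, TUBG1 and PITPNA lay just inside the minimum with a mean of 10, and bins of LINS1, TTC7A and CUL4A just outside with 9.92. Counted group by group, 5483 of the members had a mean of 10 or more in all 4 groups.

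The 5′ end of a messenger RNA is set where RNA polymerase II starts, so the first exon bins of a gene report on the promoter that was used, on alternative first exons and on the leader that carries the ribosome to the start codon. Human promoters of broadly used genes lie mostly in GC-rich CpG islands, and bound factors such as SP1, NRF1, ETS proteins and NF-Y recognise short motifs in them. Start bins are also the part of a transcript that is farthest from the poly(A) tail, and GC-rich leaders fold and are reverse-transcribed and amplified less evenly than the rest, so their read counts depend on RNA integrity and library chemistry as well as on promoter choice.

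K562 is an established human line from a chronic myeloid leukaemia in blast crisis, with erythroid features. An enhancer upstream of MYB, the gene of a transcription factor of blood progenitors, gives rise to a pair of enhancer RNAs, short-lived transcripts made from active enhancers. The study overexpressed each of them in K562 to look at exon usage, under the labels 34kn and 34kp, and each experiment had 3 overexpression libraries and 3 libraries of its own control (labels 34knContol and 34kpContol, sample descriptions WT). The vector, the time after its delivery, whether clones or pools were used, and how the replicates were grown are not given in the sources used here, and the p-values below measure only how these libraries vary, which may be technical. The empty vector, MYB overexpression and NMYB overexpression libraries of the series were not analysed here. A library held 36563252 to 41243796 counts over its bins, of which 402275 to 708578 lay in the members.

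Among markers, GATA1, TAL1, KLF1, TFRC and MYB were present in all 12 libraries, with MYB at 156 to 231 CPM (bin counts scaled to a common library total). MS4A1, ELANE, S100A8 and KRT5 were at 0 throughout, CDH1 reached at most 0.253 CPM and PAX2 0.0527 CPM. EPCAM, a surface protein of epithelia, stood at 64.8 to 93.9 CPM. The collagen genes COL1A2 and COL1A1 stood at 16.03 to 31.4 and 1.51 to 25.7 CPM, LYZ, the lysozyme of myeloid cells, at 11.2 to 24.1 and CD3D of T cells at 5.39 to 10.4. The summed epithelial markers, nearly all of them EPCAM, ran from 64.8 to 77.0 CPM in the 34kn controls and from 81.7 to 86.4 CPM with 34kn overexpression, without overlap. The part of these markers in the results below was not tested. In bulk RNA, fewer cells of a type and less RNA per cell cannot be told apart.

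Stretches of RefSeq sequence (GRCh38.p14) of 250 bases just upstream of the annotated start are shown for 6 genes whose start bins carry the results: MYB, the locus the enhancer belongs to, PARP1, GTF3A and HNRNPU, whose start bins were lower with 34kn, GPANK1, the one gene with a start bin called higher with 34kn, and RPS18, the one gene with a start bin called lower with 34kp. They lie at chr6:135181058-135181307 (MYB, plus strand), chr1:226408094-226408343 (PARP1, minus), chr13:27424369-27424618 (GTF3A, plus), chr1:244864544-244864793 (HNRNPU, minus), chr6:31666284-31666533 (GPANK1, minus) and chr6:33271825-33272074 (RPS18, plus). Each is written 5′ to 3′ on the gene's strand, and capitals mark matches, on either strand, to a fixed set of motifs. The SP1 box was searched as GGGCGG. The box bound by NF-Y was searched as CCAAT, and the core of ETS proteins as CGGAAG. The TATA box was searched as TATAAA, the site of GATA factors as AGATAA, and that of MYB itself as CAACTG. The longer motif of NRF1 was searched too. That of YY1 was only counted over all promoters and is not marked in the stretches. A promoter could hold several of them, and matches may overlap.
MYB promoter: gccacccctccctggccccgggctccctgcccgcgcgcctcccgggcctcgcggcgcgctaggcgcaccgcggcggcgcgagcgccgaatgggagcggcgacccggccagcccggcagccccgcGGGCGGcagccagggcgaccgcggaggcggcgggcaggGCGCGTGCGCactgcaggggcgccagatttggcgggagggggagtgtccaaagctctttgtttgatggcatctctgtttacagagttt
PARP1 promoter: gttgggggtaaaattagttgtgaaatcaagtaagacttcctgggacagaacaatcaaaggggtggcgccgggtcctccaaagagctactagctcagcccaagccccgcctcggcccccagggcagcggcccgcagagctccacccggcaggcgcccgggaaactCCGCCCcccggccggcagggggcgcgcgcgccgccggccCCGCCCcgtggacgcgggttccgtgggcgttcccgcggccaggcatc
GTF3A promoter: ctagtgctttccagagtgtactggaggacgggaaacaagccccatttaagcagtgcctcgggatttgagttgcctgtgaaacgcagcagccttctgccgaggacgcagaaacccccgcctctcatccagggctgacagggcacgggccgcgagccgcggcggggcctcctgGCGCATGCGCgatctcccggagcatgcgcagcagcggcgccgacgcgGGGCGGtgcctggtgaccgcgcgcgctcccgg
HNRNPU promoter: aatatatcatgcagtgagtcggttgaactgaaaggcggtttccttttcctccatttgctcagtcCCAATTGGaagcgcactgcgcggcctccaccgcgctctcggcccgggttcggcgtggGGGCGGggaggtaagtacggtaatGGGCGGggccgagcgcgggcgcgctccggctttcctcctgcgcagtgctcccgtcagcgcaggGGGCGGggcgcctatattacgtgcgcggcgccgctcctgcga
GPANK1 promoter: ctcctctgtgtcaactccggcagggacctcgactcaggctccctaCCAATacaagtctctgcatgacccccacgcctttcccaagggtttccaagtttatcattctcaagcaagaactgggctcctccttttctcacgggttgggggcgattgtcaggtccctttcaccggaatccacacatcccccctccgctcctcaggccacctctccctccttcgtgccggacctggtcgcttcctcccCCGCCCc
RPS18 promoter: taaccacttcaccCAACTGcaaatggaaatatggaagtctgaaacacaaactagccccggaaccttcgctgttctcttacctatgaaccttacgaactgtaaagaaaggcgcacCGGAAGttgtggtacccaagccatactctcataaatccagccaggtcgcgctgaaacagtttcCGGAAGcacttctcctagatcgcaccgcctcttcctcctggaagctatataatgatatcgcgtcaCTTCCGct
The MYB, PARP1 and HNRNPU stretches held 75.6%, 70.4% and 66.0% GC, against 48.4% for RPS18, a gene of a ribosomal protein with a short pyrimidine-rich leader. GTF3A and GPANK1 had 68.4% and 60%. Not printed are the like stretches of DIAPH1 and GSPT1, whose start bins were also lower with 34kn. They held 72.8% and 46.4% GC, and the GSPT1 stretch had a TATAAA match and no SP1 box. Motifs were counted only in the 250 bases before the start of each RefSeq promoter window (250 bases before to 50 after the start). Over the 2896 genes with members that matched such a window, 72.5% held the SP1 box, against 42.3% of all 27305 windows in the table. The ETS core was in 31.6% against 16.8%, and the NRF1 site in 12.4% against 5.53%. TATAAA went the other way, with 4.11% against 11.1%, as did AGATAA, with 3.49% against 9.37%. CCAAT was in 35.0% against 33.0%, CAACTG in 6.32% against 9.10%, and the YY1 motif in 0.414% against 0.256%. The set thus held mainly GC-rich promoters without a TATA box, and a match is a string of letters and not a bound site. In the 240 such genes with a start bin lower with 34kn, the shares were close to those of all genes with members: 75.8% for the SP1 box, 12.9% for the NRF1 site, 35.4% for CCAAT, 30% for the ETS core and 4.17% for TATAAA.

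Whole coding bins show what the counted start pieces themselves look like. The 5 below were read from GENCODE 29 transcripts (GRCh38) in genes whose bins could be placed, and were picked, after their values were seen, from bins lower with 34kn. Capitals mark CG pairs, the dinucleotide that is rare in most of the genome and common in CpG islands. They lie at chr6:17706277-17706387 (NUP153, minus strand, 111 bases, 67.6% GC), chr3:154324252-154324416 (DHX36, minus, 165 bases, 71.5%), chr5:55308069-55308147 (MTREX, plus, 79 bases, 57.0%), chr3:52409842-52409878 (BAP1, minus, 37 bases, 59.5%) and chr2:190310754-190310796 (HIBCH, minus, 43 bases, 34.9%).
NUP153 bin 24: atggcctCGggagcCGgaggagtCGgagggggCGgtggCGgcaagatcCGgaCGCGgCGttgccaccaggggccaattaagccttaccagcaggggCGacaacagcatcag
DHX36 bin 47: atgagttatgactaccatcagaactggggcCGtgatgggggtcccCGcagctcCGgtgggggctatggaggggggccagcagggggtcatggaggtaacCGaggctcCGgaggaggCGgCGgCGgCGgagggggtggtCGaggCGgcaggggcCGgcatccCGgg
MTREX bin 4: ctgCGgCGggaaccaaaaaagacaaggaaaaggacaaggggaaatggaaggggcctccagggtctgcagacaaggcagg
BAP1 bin 40: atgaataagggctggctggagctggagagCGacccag
HIBCH bin 39: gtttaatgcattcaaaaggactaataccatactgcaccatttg
NUP153 is a nuclear pore protein and DHX36 a helicase of G-quadruplexes, and their pieces hold many CG pairs. The HIBCH piece, from a mitochondrial enzyme of valine breakdown, holds none. Counts of NUP153 bin 24 were 476, 231 and 302 in the 34kn controls and 176, 183 and 190 with overexpression. Those of HIBCH bin 39 were 89, 46 and 61 against 24, 20 and 39. In both the lowest control lay above the highest overexpression library. The log2 change against the rest of the gene was -0.95 (standard error, SE, 0.190) for NUP153 and -1.34 (SE 0.307) for HIBCH, with adjusted p of 0.00135 and 0.00835 in edgeR's test of exon usage. Without the first control they were -0.55 and -1.08 and neither passed (adjusted p = 0.143 and 0.226), nor did either without the first or the second overexpression library, or HIBCH without the third control (adjusted p = 0.0577).

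Start bins took a smaller share of their genes' counts with 34kn overexpression than in the 34kn controls, and with 34kp overexpression their shares spanned those of the 34kp controls. The share was the sum over a gene's member bins divided by the sum over all its bins, and its median over the 3462 genes stood for a library. The medians were 4.19%, 2.80% and 3.08% in the 34kn controls and 2.49%, 2.48% and 2.61% with 34kn overexpression. All 3 overexpression libraries lay below all 3 controls, and the first control stood well above the other two. The 34kp controls had 2.198%, 2.45% and 2.50%, and the 34kp overexpression libraries 2.81%, 2.35% and 1.99%, which span the controls on both sides. Group means were 3.36 ± 0.738% and 2.53 ± 0.0759% in the 34kn experiment and 2.38 ± 0.162% and 2.38 ± 0.409% in the 34kp experiment (SD, n = 3).

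The 34kn difference was -0.829 percentage points, with p = 0.1 in an exact two-sided permutation test, the smallest p that 3 libraries against 3 can give (0.2 adjusted over 12 tests), and -0.411 points without the first control. The 34kp difference was -0.000474 points (exact p = 1). The difference between both effects was 0.829 points, with p = 0.145 by exact permutation within each experiment (0.218 adjusted), so the experiments were not shown to differ. The 34kp controls lay below the 34kn controls by 0.972 points, without overlap (exact permutation p = 0.1). The 34kn comparison and that between controls share the 34kn control libraries, so they are not independent of each other. Reads outside annotated bins made up 29.5% to 29.96% of all reads listed in a file in the 34kn controls, 30.4% to 30.9% with 34kn, 31.1% to 31.8% in the 34kp controls and 31.6% to 32.8% with 34kp. Reads of low alignment quality made up 8.94% to 10.5%, 7.62% to 9.45%, 7.14% to 8.35% and 4.46% to 4.64% in the same order. The part of either in the shares was not tested.

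**Figure D1:**
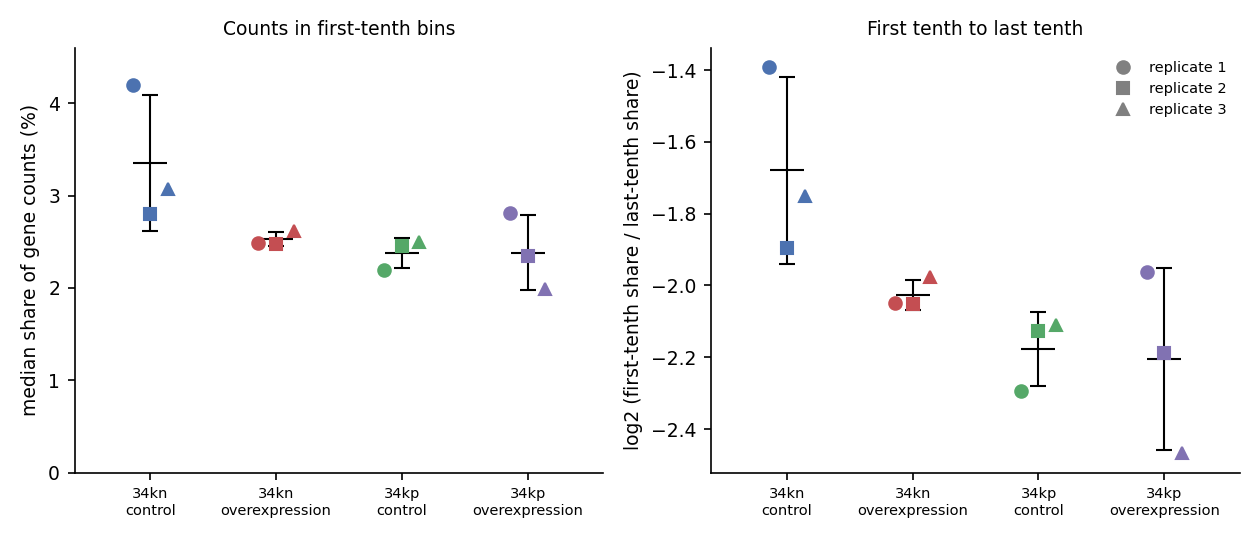
Left, median share of a gene's bin counts in its member bins (percent), 1 point per library in the 4 groups; right, log2 ratio of the pooled first-10% share to the last-10% share. Black marks are the mean and SD of 3 libraries; the first 34kn control, at 4.19% on the left, is the highest library and the 34kn overexpression libraries sit between 2.48% and 2.61%.

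Set against the far end of the same genes, the start bins gave the same order. In the 2643 genes that also had a last-10% bin at the minimum, the log2 ratio of the pooled first-10% share to the last-10% share was -1.68 ± 0.260 in the 34kn controls and -2.03 ± 0.0421 with 34kn, -2.18 ± 0.102 in the 34kp controls and -2.21 ± 0.254 with 34kp (SD, n = 3). The 34kn groups did not overlap and differed by -0.35 (exact permutation p = 0.1), and by -0.20 without the first control. The 34kp groups overlapped and differed by -0.03 (exact permutation p = 0.8).

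The difference faded from the start of the genes inward. With 34kn, the median log2 change of a bin against its gene was -0.33 in the first 10% of a gene's bins, -0.20 in the next 10%, then -0.08 and -0.02, and lay between 0.01 and 0.03 in each step after that. Without the first control the first 4 medians were -0.14, -0.09, -0.04 and -0.02. The share of tested bins that passed the test of exon usage fell from 5.25% in the first step to 2.94%, 1.41% and 0.423%, and was between 0.147% and 0.262% in the later steps. Without the first control it was 0.709%, 0.456%, 0.249% and 0.0753%, and at most 0.0948% after that. Between the controls the same medians were -0.42, -0.29, -0.15 and -0.05, and the share passing fell from 8.42% to 0.443% in step 7 and rose again to 2.13% in the last. With 34kp the medians stayed between -0.02 and 0.02 in every step. There 4 of 6625 tested bins passed in step 1 (0.0604%), 4 of 13659 in step 2 (0.0293%), 1 of 15359 in step 3 (0.00651%) and 0 in the later ones. Over all bins tested with 34kp the share was 0.00862%. These steps take all tested bins of the eligible genes, also those below the members' count minimum, so the first holds 6953 bins in the 34kn comparison.

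**Figure D2:**
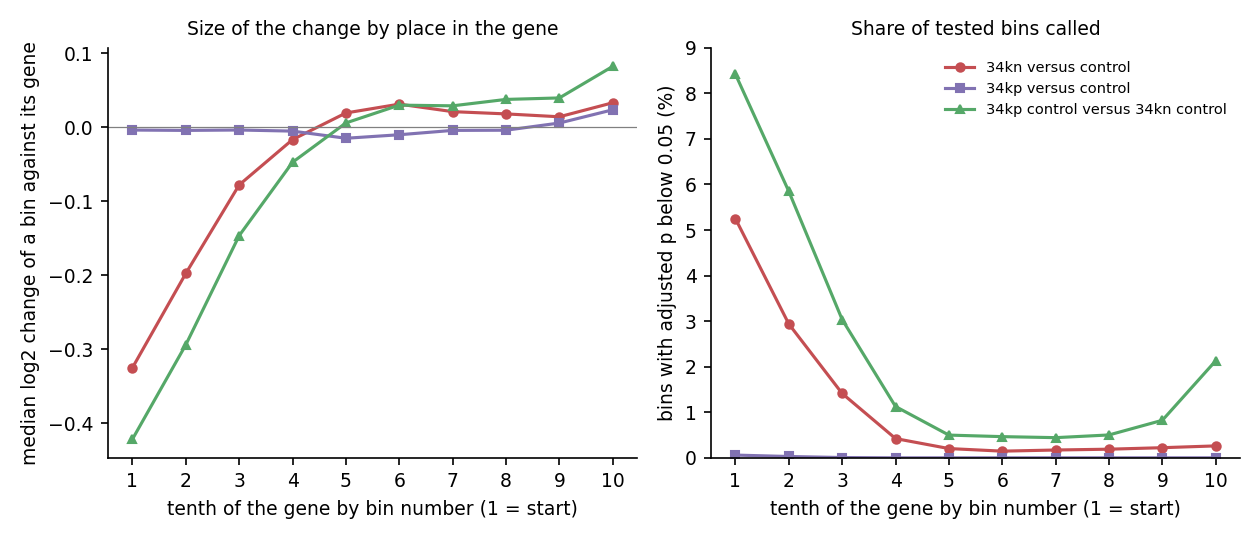
Median log2 change of a bin against its gene (left) and percent of tested bins with an adjusted p below 0.05 (right) in each 10% step of the gene by bin number, for 3 comparisons. The 34kn line starts at -0.33 and 5.25% in the first 10% and the 34kp line stays near 0 in both panels; the controls' line rises again to 2.13% in the last 10%.

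Gene by gene, no start share passed. The counts of the member bins were set against those of the rest of the gene in edgeR's quasi-likelihood test with a term for each library, and 0 of 3620 genes tested (0%), 3462 of them the protein-coding genes with members, passed an adjusted p of 0.05 with 34kn. At an unadjusted p under 0.05 there were 622, and DESeq2 called 3. The median log2 change over the 3620 genes was -0.35, with 80.7% below 0, and -0.17 without the first control, so a single gene's fall is read against that common shift. With 34kp 0 passed (0%), with 131 at an unadjusted p under 0.05, 0 by DESeq2 and a median of 0.01. For the difference between both effects 0 passed (0%), with 449 at an unadjusted p under 0.05 and 0 by DESeq2. The last 10% of the genes, tested the same way, gave 1 gene of 5784 (0.0173%) in each experiment. In 810 of the 3462 genes with members, 23.4%, the share was lower in all 3 34kn libraries than in all 3 controls, and in 59, 1.7%, it was higher in all. With 34kp these were 173 genes, 5%, and 140 genes, 4.04%.

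The 5 genes with the smallest p with 34kn, none of which passed in edgeR, were FLII, an actin-remodelling coactivator, GTF3A, the factor that starts 5S ribosomal RNA transcription, SMARCD2, a subunit of the SWI/SNF remodeller needed in granulocytes, APLP2, a relative of the amyloid precursor protein, and GRAMD1A, a sterol transfer protein. The FLII start share (chr17:18244836-18258916, 4 members) was 2.73%, 2.02% and 2.25% in the 34kn controls and 0.796%, 1.00% and 0.982% with overexpression. That of GTF3A (chr13:27424544-27435823, 2 members) was 4.11%, 2.67% and 3.37% against 1.39%, 1.12% and 1.53%. In all 5 genes every overexpression library lay below every control. The log2 changes were -1.34 (SE 0.236) for FLII, -1.35 (SE 0.252) for GTF3A, -1.39 (SE 0.305) for SMARCD2, -1.72 (SE 0.379) for APLP2 and -1.89 (SE 0.416) for GRAMD1A, each with an adjusted p of 0.234 in edgeR. DESeq2 called FLII and GTF3A, both at an adjusted p of 0.0178, and GRAMD1A at 0.0471, and gave 0.0631 for SMARCD2 and APLP2. In the 34kp experiment the same genes had values of 0.01, -0.05, 0.40, -0.04 and 0.38 in that order, with adjusted p of 0.997 to 0.999 in edgeR.

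Bin by bin, the start bins were called more often than bins at large. In edgeR's test of exon usage (diffSpliceDGE), which compares each bin's log2 change with that of its gene and has no term for the library, 359 of 6432 tested members passed with 34kn, 5.58%, against 0.795% of all 216197 bins tested. Of these, 358 bins in 283 genes were lower (0.773% of all bins tested were) and 1 was higher, and 61 of the genes had several lower members. In the last 10% 27 of 11451 bins at the minimum passed. Among the 5447 tested members with a mean of 10 or more in every group, 316 were lower. The changes of the lower members ran from -4.14 to -0.51, with a median of -1.15. Without the first 34kn control, 51 of 6466 members passed, 0.789%, against 0.158% of all bins, and 47 of these were among the 359. Without the second control it was 1040 (15.9% against 3.74%), and without the third it was 267 (4.09% against 0.501%). Without overexpression library 1, 2 or 3 it was 95, 67 and 176 (1.45%, 1.02% and 2.68%, against 0.16%, 0.113% and 0.318%). In every one of these settings the members' share was above that of all bins, all 358 lower bins kept a change below 0, and their number rested on single libraries.

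The lower start bins with the smallest p, among those with a mean count of 50 or more, belonged to widely expressed genes of chromatin, signalling and protein synthesis. TRIM28 bin 5 (chr19:58544562-58544937, 376 bases that overlap coding sequence, 82.7% GC) belongs to the gene of the corepressor that recruits heterochromatin factors to zinc-finger proteins. It counted 966, 236 and 357 in the 34kn controls and 157, 138 and 175 with overexpression, or 2.39%, 0.627% and 1.02% of TRIM28 counts against 0.502%, 0.382% and 0.514%. The first control was far above the rest, and the other two were still above every overexpression library. The change was -1.57 (SE 0.179, adjusted p = 3.62e-11 in edgeR), and -0.82 (adjusted p = 0.000555) without the first control.

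PARP1 bin 68, the sixth bin from the start of the gene of the main poly(ADP-ribose) polymerase of DNA repair, showed the same order. Its share was 1.98%, 0.396% and 0.967% in the 34kn controls and 0.254%, 0.309% and 0.350% with overexpression. With 34kp it was 0.299%, 0.653% and 0.683% in the controls and 1.46%, 0.782% and 0.441% with overexpression, groups that overlapped. The 34kn change was -1.89 (SE 0.219, adjusted p = 1.76e-10 in edgeR) and -1.16 without the first control, and the 34kp value was 0.73 (SE 0.196, adjusted p = 0.772). Its upstream stretch, shown above, carries a pair of SP1 boxes.

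At GTF3A bin 2 no control stood far from the others. It held 2.83%, 1.78% and 2.24% of GTF3A counts in the 34kn controls and 0.894%, 0.708% and 0.978% with overexpression, so even the lowest control was well above the highest overexpression library. The change was -1.39 (SE 0.193, adjusted p = 7.40e-07 in edgeR) and -1.23 (adjusted p = 5.48e-05) without the first control. DIAPH1, a formin that builds actin filaments, changed by -1.52 at bin 61, and GSPT1, the release factor eRF3a, by -1.85 at bin 31. TRIM27, a ubiquitin ligase of the same family as TRIM28, changed by -1.45 at bin 22, SMARCD2 by -1.41 at bin 34 and GRAMD1A by -1.92 at bin 4. All 5 still passed without the first control, with changes of -0.93, -1.02, -1.04, -1.11 and -1.46 in that order. EIF2AK1, the haem-regulated kinase of translation factor eIF2, changed by -1.75 at bin 33, RBBP7, a histone-binding chaperone, by -1.35 at bin 38, and UBE3C, a ubiquitin ligase, by -1.47 at bin 2. These 3 no longer passed without that control, with -0.80, -0.50 and -0.72 and adjusted p of 0.0745, 0.328 and 0.393 in edgeR. In the 34kp controls against the 34kn controls, EIF2AK1 changed by -1.68, RBBP7 by -1.46 and UBE3C by -1.11 at these bins. DIAPH1 changed by -1.04, GSPT1 by -1.22, GRAMD1A by -0.93, PARP1 bin 68 by -1.04 and TRIM28 bin 5 by -0.60. All of these passed (adjusted p of 1.06e-07 to 0.0355 in edgeR). TRIM27, SMARCD2 and GTF3A, at -0.59, -0.60 and -0.33, did not (adjusted p = 0.103, 0.136 and 0.549 in edgeR).

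Large sizes also came from bins with few counts in the 34kn overexpression libraries, of which 2 are given here, picked after their values were seen. Both had a 34kn overexpression mean below 10 and reached the count minimum through the other libraries. They are thus not among the 5483 members with a mean of 10 or more in all 4 groups. ATP2A2 bin 3, of the calcium pump of the endoplasmic reticulum, counted 182, 17 and 50 in the 34kn controls and 2, 1 and 12 with overexpression, and changed by -4.14 (SE 0.419, adjusted p = 2.24e-13 in edgeR). AGAP3 bin 4, of a GTPase-activating protein, counted 148, 34 and 38 against 6, 6 and 5, and changed by -3.41 (SE 0.326, adjusted p = 4.63e-14 in edgeR). Both still passed without the first control, at -2.82 and -2.45 (adjusted p = 0.000340 and 0.000555 in edgeR). The 34kp libraries held 68, 27 and 14 counts of ATP2A2 bin 3 with overexpression and 12, 27 and 24 in the controls, which overlap.

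**Figure D3:**
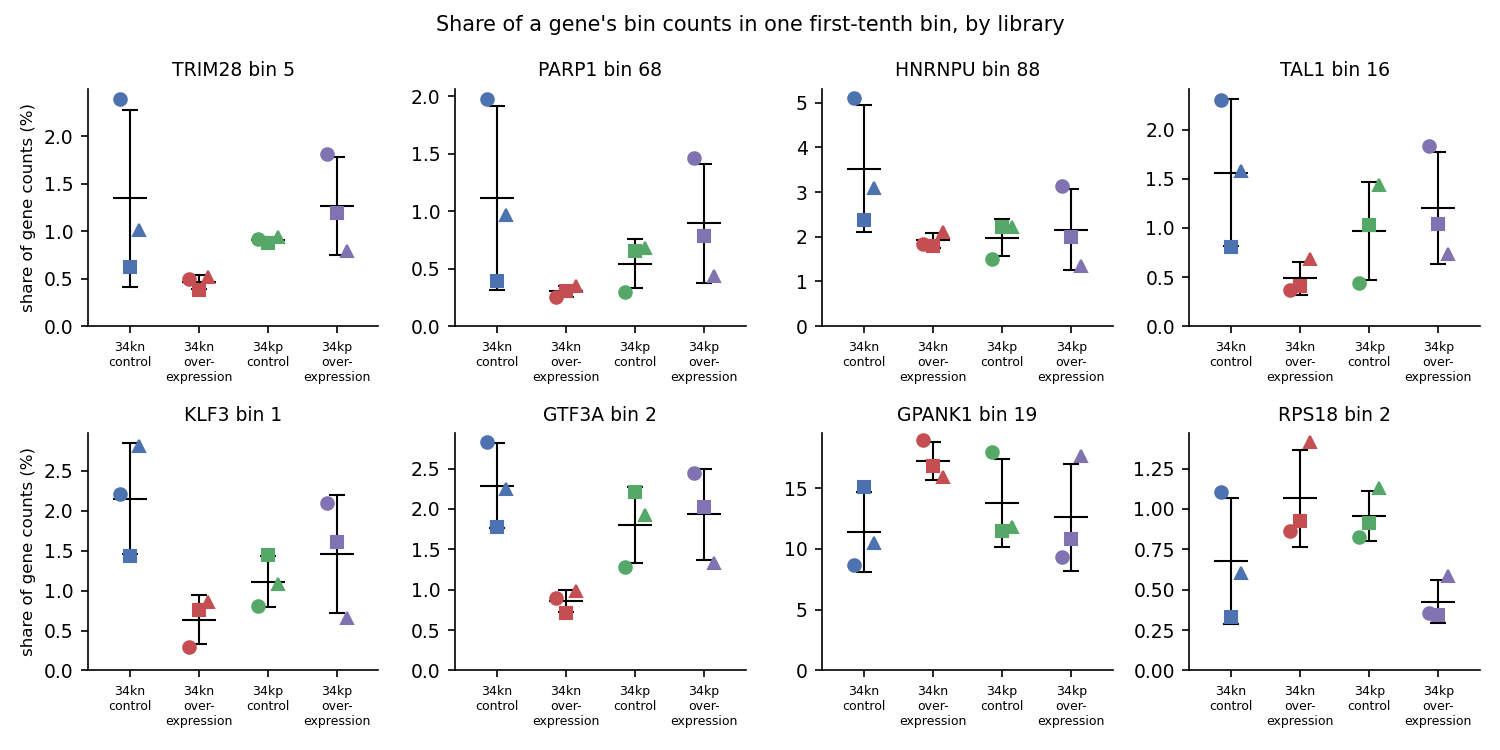
Share of a gene's bin counts in 1 first-10% bin (percent), 1 point per library (circle, square and triangle for replicates 1, 2 and 3) with mean and SD, for 8 bins. TRIM28, PARP1, HNRNPU, TAL1, KLF3 and GTF3A bins are lower in all 3 34kn overexpression libraries than in all 3 34kn controls, GPANK1 bin 19 is higher in all 3, and RPS18 bin 2 is lower in all 3 34kp overexpression libraries than in all 3 34kp controls.

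GPANK1 held the only start bin called higher with 34kn. Bin 19 (chr6:31665862-31666283, 422 noncoding bases, 65.4% GC) is the first bin of this gene of the major histocompatibility region, which codes for a G-patch and ankyrin protein. It took 8.65%, 15.1% and 10.5% of GPANK1 counts in the 34kn controls and 18.97%, 16.8% and 15.9% with overexpression. The lowest overexpression library lay just above the highest control. The change was 0.63 (SE 0.164, adjusted p = 0.0370 in edgeR), and 0.45 (adjusted p = 0.230) without the first control. It passed without the second control, and missed the threshold without each of the other libraries, with adjusted p of 0.193 to 0.597 in edgeR. In the 34kp experiment the share was 18.0%, 11.5% and 11.8% in the controls and 9.35%, 10.8% and 17.6% with overexpression.

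Among genes for blood cells, 7 of 43 tested start bins in the list of erythroid and haem genes were lower with 34kn, 16.3%, and none was higher. The share over all tested members was 5.58%, and over all bins 0.795%. A list's count near the first of these is no result about the list, and none was tested against the others. Without the first control 2 of the 43 passed, and without 1 library at a time 2 to 11 did. KLF3, a repressor of the Krüppel-like family that counteracts KLF1, changed by -1.73 (SE 0.306, adjusted p = 0.000407 in edgeR) at bin 1, a single base at chr4:38664196, the first bin of the gene. Its counts were 53, 42 and 72 in the 34kn controls and 8, 22 and 25 with overexpression, and without the first control the change was -1.71 (adjusted p = 0.00522). Without the first overexpression library, which had the 8 counts, it was -1.39 and no longer passed (adjusted p = 0.0596 in edgeR). TAL1, a master regulator of erythroid fate with alternative promoters, changed by -1.70 (SE 0.387, adjusted p = 0.0116 in edgeR) at bin 16, its first bin (chr1:47232167-47232220, 54 noncoding bases). The TAL1 share was 2.30%, 0.801% and 1.58% against 0.372%, 0.405% and 0.683%, groups that do not overlap, and without the first control TAL1 no longer passed (-1.29, adjusted p = 0.266), nor did it without the third control, the first or the second overexpression library (adjusted p = 0.0751, 0.191 and 0.201 in edgeR).

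EPB41, the membrane skeleton protein 4.1, which uses alternative first exons in red cell development, changed by -1.28 and -1.25 at bins 6 and 5 (SE 0.225 and 0.253, adjusted p = 8.49e-05 and 0.00120 in edgeR). TFRC, the transferrin receptor, changed by -0.63 at bin 44, LDB1, the bridge of enhancer loops, by -0.89 at bin 17, and ABCB10, a mitochondrial transporter needed for haem, by -0.59 at bin 17. Of these, EPB41 bin 6 alone still passed without the first control (-0.94, adjusted p = 0.0119), and it passed without each other library too, while bin 5 also missed the threshold without the second overexpression library (adjusted p = 0.0905). The LDB1 bin was -0.68 without that control (adjusted p = 0.306) and, like the ABCB10 bin, passed without the second control and without no other library. The TFRC bin passed without the second or the third control only. Of the 23 genes of this list with members, 20 had a change below 0 in the per-gene test, with a median of -0.54, against -0.35 over all genes tested, and 0 passed. RHAG, the Rh-associated glycoprotein, went the other way, at 8.66%, 8.84% and 9.01% in the 34kn controls and 9.34%, 9.29% and 10.05% with overexpression, a log2 value of 0.12 (adjusted p = 0.709 in edgeR).

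In the list of genes known for alternative promoters, 4 of 32 tested bins were lower with 34kn, 12.5%, and 1 without the first control. They were those of EPB41 and TAL1 above and bin 30 of STAT5B, a transcription factor active downstream of BCR-ABL1. STAT5B changed by -1.20 (SE 0.221, adjusted p = 0.000397 in edgeR) and no longer passed without the first control (-0.67, adjusted p = 0.418). BCR, whose first exon is kept in the BCR-ABL1 fusion of K562, took 24.97%, 19.3% and 20.9% of its counts at its 1 member in the 34kn controls and 17.1%, 15.6% and 17.8% with overexpression. The BCR groups did not overlap, and the log2 value was -0.45 (SE 0.218, adjusted p = 0.315 in edgeR). NFE2, the erythroid partner of small MAF proteins, stood at 8.93% to 9.65% against 8.86% to 9.95%, a value of -0.01.

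Splicing factors had 5 of 69 tested bins lower with 34kn, 7.25%, near the share of all tested members, and none higher, and 1 of 69 without the first control. HNRNPU, a nuclear scaffold and splicing protein, held 3 of them, bins 88, 89 and 90, with changes of -0.88, -0.84 and -0.60 (SE 0.149, 0.168 and 0.147; adjusted p = 3.00e-05, 0.000824 and 0.0131 in edgeR). Bin 88 counted 2453, 1166 and 1440 in the 34kn controls and 848, 905 and 1056 with overexpression, groups that do not overlap. It still passed without the first control (-0.51, adjusted p = 0.00303), and bins 89 and 90 did not (-0.44 and -0.36, adjusted p = 0.223 and 0.113), nor without the first or the second overexpression library, or bin 90 without the third. U2AF2, which binds the polypyrimidine tract, changed by -1.03 at bin 2, and SF3B3, a part of the SF3b complex, by -0.68 at bin 3. Without the first control these were -0.71 and -0.37, with adjusted p of 0.101 and 0.627 in edgeR, and neither passed without any 1 of the overexpression libraries, nor SF3B3 without the third control. HNRNPA1, by contrast, had a per-gene value of -0.03, with shares of 2.51% to 3.74% in the controls and 2.85% to 3.19% with overexpression.

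Mediator, cohesin and enhancer cofactors had 2 of 60 tested bins lower, 3.33%, of PDS5A, which regulates cohesin (-0.93 at bin 50), and LDB1. PDS5A no longer passed without the first control (-0.60, adjusted p = 0.400) or without the second overexpression library (-0.74, adjusted p = 0.326). MED12, of the Mediator kinase module, had a per-gene value of 0.17 over 10 members. Genes of initiation and pausing had 1 of 36, 2.78%, SUPT6H, a histone chaperone of elongation, at -0.96, and that value was -0.10 without the first control (adjusted p = 0.997) and did not pass without any 1 of the overexpression libraries either. POLR2A, the largest subunit of RNA polymerase II, had -0.15, and INTS1, of the Integrator complex, -0.12. Of reported MYB targets 1 of 12 was lower, 8.33%, that of TFRC. All 3 lists had 0 called bins without the first control. In the same list MAT2A and SLC25A37 had per-gene values of -0.25 each. With no filter on low counts the bins of SUPT6H, SF3B3, LDB1, TFRC and ABCB10, and the higher one of GPANK1, no longer passed (adjusted p of 0.0609 to 0.138 in edgeR). The per-gene medians of these lists were -0.42, -0.35 and -0.42, beside -0.35 over all genes tested.

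Among cytosolic ribosomal proteins 0 of 39 tested start bins passed with 34kn in edgeR, beside 5.58% of all tested members. Of the same 39, 1 was called higher without the first control. These genes start at a run of pyrimidines (the TOP motif) in a short leader. The median of their per-gene values was 0.12, with 8 of 21 genes below 0, and the start share was lower without overlap in 1 gene and higher in 2. RPS14 and RPS24 stood at -0.01 each. Reads of ribosomal protein genes can be shared with many processed pseudogenes, so the counts are uncertain.

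With 34kp overexpression 1 of 6303 tested members passed, 0.0159%, against 0.00862% of all bins (0.00771% for lower ones), and it belonged to a ribosomal protein gene. RPS18 bin 2 (chr6:33272075-33272087, 13 noncoding bases that begin where the stretch shown above ends) counted 569, 633 and 827 in the 34kp controls and 283, 229 and 350 with overexpression. The highest overexpression library lay well below the lowest control. The change was -1.19 (SE 0.182, adjusted p = 0.000115 in edgeR), and the adjusted p rose to 0.0816 without the third control and to 0.0713 without the second overexpression library. In the 34kn experiment the same bin held 1179, 272 and 504 counts in the controls and 651, 755 and 1156 with overexpression, a value of 0.57 (adjusted p = 0.502 in edgeR). The difference between both effects over the RPS18 start was -1.91 (SE 0.503) in the per-gene test, with an adjusted p of 0.395 in edgeR.

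The other genes with the smallest p with 34kp did not pass. PMEL, a melanosome protein, took 68.9%, 62.9% and 67.6% of its counts at 2 start bins in the 34kp controls and 82.4%, 83.9% and 82.2% with overexpression, and 88.9% to 94.3% in the 6 34kn libraries. CDNF, a neurotrophic factor of the endoplasmic reticulum, stood at 37.0%, 31.0% and 35.2% against 69.0%, 62.4% and 46.8%, and C1orf54 at 45.04%, 55.9% and 58.4% against 85.1%, 98.0% and 75%. These groups did not overlap, and in all 3 genes every 34kp control lay below every other library of the set. ADD3, a cap of actin filaments in the membrane skeleton, went down, from 2.95%, 3.33% and 2.69% to 1.90%, 1.42% and 1.47%. The log2 values were 1.28, 1.51, 2.49 and -0.93, with adjusted p of 0.973 for PMEL and 0.997 for the others in edgeR. Start bins that hold most of a gene's counts can hold reads of an overlapping or neighbouring transcript, which was not tested.

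Between the control groups, 582 of 6534 tested members passed, 8.91%, against 2.02% of all bins, and 573 of these were lower in the 34kp controls (1.49% of all bins were). Summed markers of other cell types differed between the same libraries, and their part was not tested. Monocytic and granulocytic markers summed to 11.4 to 12.7 CPM in the 34kn controls and 21.2 to 24.6 in the 34kp controls, fibroblast markers to 26.5 to 34.6 and 40.8 to 42.0, and epithelial ones to 64.8 to 77.0 and 89.9 to 93.4, all without overlap. The K562 markers summed to 1174 to 1238 and 1583 to 1645 CPM, also without overlap, while the lymphoid ranges, 7.73 to 9.66 and 8.66 to 9.95, overlapped. These sums rest on few genes. The monocytic and granulocytic sum was nearly all LYZ, with CD14 at most 0.632 CPM and MPO at most 0.228. The fibroblast sum held only COL1A1 and COL1A2, and the epithelial one was nearly all EPCAM. TFRC, at 593 to 1086 CPM, was the largest part of the K562 sum. Without the first 34kn control 102 of 6560 passed, 1.55% against 0.822%, and without 34kp control 1, 2 or 3 it was 108, 197 and 365 (1.63%, 2.97% and 5.5%, against 0.454%, 0.571% and 1.11%). By list, 13 of 65 bins of splicing factors (20%), 8 of 36 of initiation and pausing (22.2%) and 7 of 60 of Mediator, cohesin and enhancer cofactors (11.7%) were lower. So were 4 of 12 of reported MYB targets (33.3%), 4 of 45 of erythroid and haem genes (8.89%), 4 of 32 of alternative promoter genes (12.5%) and 0 of 39 of ribosomal proteins. Without the first 34kn control the lower bins were 2, 0, 0, 2, 2, 0 and 0 in that order, and 2 of 39 bins of ribosomal proteins were called higher. Without the first 34kp control the lower bins were 1, 1, 1, 2, 2, 1 and 0. Some list bins called with 34kn also passed here. They were HNRNPU bins 88, 89 and 90 (-0.83, -1.22 and -0.77), EPB41 bin 5 (-0.88) and those of STAT5B (-1.15), SUPT6H (-1.35), PDS5A (-0.94) and TFRC (-0.91). The called bins of KLF3, ABCB10 and SF3B3, and EPB41 bin 6, narrowly missed the threshold, at -0.94, -0.56, -0.60 and -0.76 (adjusted p = 0.0594, 0.0548, 0.0606 and 0.0571 in edgeR). Those of TAL1, U2AF2 and LDB1, at -0.73, -0.62 and -0.16, did not pass either (adjusted p = 0.423, 0.255 and 0.873 in edgeR). In the per-gene test 0 of 3620 passed (0%), with 867 at an unadjusted p under 0.05 and 69 by DESeq2, while the last 10% gave 781 of 5784 (13.5%). The share was lower in all 3 34kp controls than in all 3 34kn controls in 1081 genes, 31.2%, and higher in 91, 2.63%. The 9 higher bins included 3 of RPL9, a ribosomal protein of the large subunit, at 1.20, 1.25 and 1.30, and bins of UBXN11 (1.29), CFL1, which severs actin (1.06), and ING5, a reader of histone methylation (0.88). UBXN11 bin 40 took 3.09%, 4.42% and 3.39% of its counts in the 34kn controls and 11.01%, 7.77% and 7.83% in the 34kp controls. With 34kn overexpression it took 6.04%, 6.12% and 5.55%, between those groups.

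MYB (chr6:135181315-135219173, plus strand) has 46 bins in the files, and bins 2, 3 and 4 were members. Together they took 5.48%, 3.84% and 4.07% of MYB counts in the 34kn controls and 2.76%, 3.04% and 2.97% with 34kn overexpression. The 34kp controls had 2.36%, 2.62% and 2.72%, and the 34kp overexpression libraries 3.19%, 2.27% and 1.68%. The 34kn groups did not overlap, and the 34kn overexpression libraries lay above the 34kp controls. The per-gene log2 value was -0.62 (SE 0.227, adjusted p = 0.266 in edgeR) with 34kn and -0.15 (SE 0.260, adjusted p = 0.997) with 34kp, and the difference between them was 0.47 (SE 0.338, adjusted p = 0.555).

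Of the single MYB bins, bin 4 counted 213, 186 and 172 in the 34kn controls, 125, 164 and 146 with 34kn, 129, 136 and 144 in the 34kp controls and 177, 139 and 95 with 34kp. Bin 3 counted 103, 97 and 81, then 58, 65 and 72, then 56, 59 and 62, then 60, 49 and 39 in the same groups. The 34kn groups did not overlap at either bin, and the changes were -0.57 and -0.70 with adjusted p of 0.140 and 0.147 in edgeR, so neither passed. Without the second 34kn control both did, at -0.67 and -0.76 (adjusted p = 0.0121 and 0.0400 in edgeR). Both were lower in the 34kp controls than in the 34kn controls, by -0.74 (adjusted p = 0.0160) and -0.93 (adjusted p = 0.0140) in edgeR. Bin 2 had 13 to 27 counts per library and a 34kn value of -0.37 (SE 0.352). AHI1, the ciliary gene downstream of MYB on the other strand, had 2 members with 39.1 counts on average, a 34kn value of -1.11 (SE 0.483, adjusted p = 0.284 in edgeR) and a 34kp value of -0.19 (adjusted p = 0.997). HBS1L, on the other side of the enhancer, had no member.

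**Figure D4:**
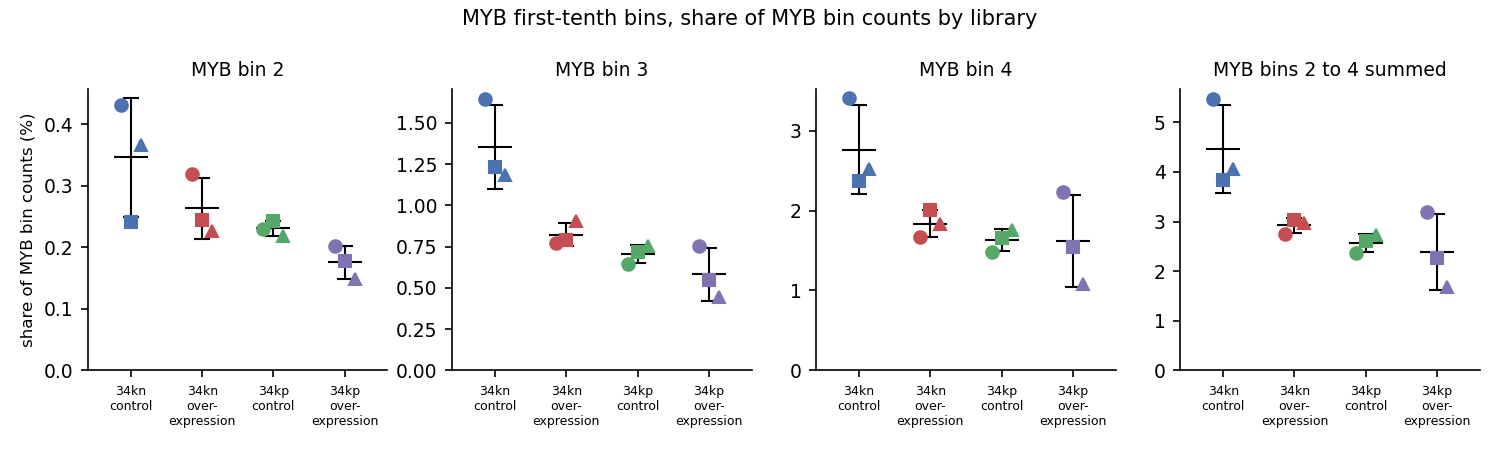
Share of MYB bin counts (percent) at bins 2, 3 and 4 and at their sum, 1 point per library with mean and SD of 3 libraries in each group. The summed share is 3.84% to 5.48% in the 34kn controls, 2.76% to 3.04% with 34kn, 2.36% to 2.72% in the 34kp controls and 1.68% to 3.19% with 34kp.

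Start bins that could be placed had a median GC content of 67.8%. Their median values with 34kn, and also between the controls, were farther below 0 above the lowest GC quartile than in it. Coordinates could be rebuilt from GENCODE 29 for 3060 members in 1717 genes, those whose annotation there gave the same number of bins as the files. Their GC content varied, with 320 members below 45% and 358 at 45% to 55%, and its median stood against 55.6% in steps 2 and 3, 49.1% in steps 4 to 9 and 44.8% in the last. By quartile of GC content the median 34kn value of the members was -0.13, -0.31, -0.42 and -0.46, from the lowest to the highest, and without the first control -0.05, -0.13, -0.19 and -0.24. Between the controls the same quartiles had -0.24, -0.47, -0.50 and -0.47, and -0.17, -0.28, -0.28 and -0.22 without the first 34kn control. Values also differed by place at a like GC content. Members below 45% GC had a median of -0.12, while bins of 75% GC or more had -0.46 in the first 10%, -0.40 in steps 2 and 3, -0.06 in steps 4 to 9 and -0.15 in the last. With 34kp the medians by GC class in the first 10% ran from -0.04 below 45% to 0.05 at 75% or more. These are descriptions of bins that share libraries and genes, and they carry no test.

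**Figure D5:**
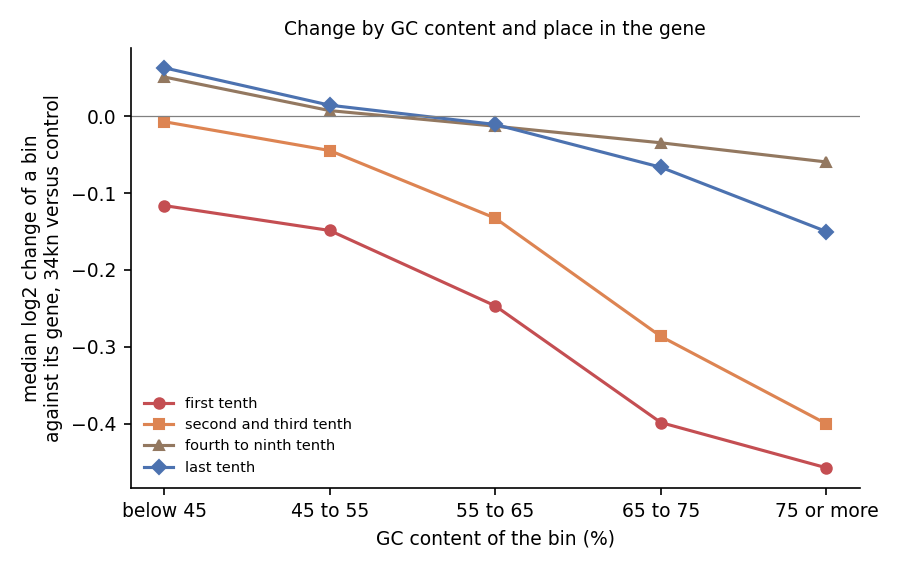
Median log2 change of a bin against its gene, 34kn versus control, in 5 classes of the bin's GC content (percent) and 4 places in the gene. In the first 10% the median goes from -0.12 below 45% GC to -0.46 at 75% or more, and in steps 4 to 9 the same classes end at -0.06.

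Other features of the members were set beside the 34kn value in the same way, also with no test. Over all tested members its median was -0.32, and -0.14 without the first control. By quartile of the exonic distance from the bin to the end of the gene, with median distances of 3032 to 11030 bases from the first to the last, the median 34kn values were -0.33, -0.35, -0.33 and -0.32, and -0.14, -0.17, -0.15 and -0.13 without the first control. Between the controls they were -0.32, -0.47, -0.44 and -0.48, with 6.18% of tested members called in the first quartile and 11.04% in the last. By exonic length of the gene they were -0.30, -0.34, -0.33 and -0.30, and by GC content of the promoter window -0.26, -0.32, -0.34 and -0.35. Noncoding members had -0.39 and members with coding sequence -0.26. Bins numbered 1, 2 and 3 from the start had -0.37, -0.35 and -0.34, and later bins -0.24. By mean count the values went from -0.36 in the lowest quartile to -0.26 in the highest, where 178 of 1662 tested bins passed against 23 of 1450 in the lowest. Genes with members were deeper, with a median sum of 2522.5 counts against 69.75 for the eligible genes without, had 33 bins against 25 and 5877 exonic bases against 4845, and their promoter windows held 66.7% GC against 62.7%.

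The level of the start share itself ranged over the whole scale, given here as a description. Among genes with a mean sum of at least 1000 counts it was highest in JSRP1, a muscle protein of calcium release, whose 1 member took 99.8% to 100% of its counts, and in ENO3, the muscle enolase, at 88.3% to 96.1%. ABCB9, a lysosomal peptide transporter, HSPB1, a small heat shock protein, and EME2, a nuclease subunit, followed at 33.8% to 58.8%, 35.0% to 47.4% and 35.6% to 49.6%. ENO3 stood at 95.9% to 96.1% in the 34kn controls, 94.5% to 95.3% with 34kn and 88.3% to 91.8% in the 6 34kp libraries. The lowest shares were in RPLP0, a ribosomal stalk protein, at 0.00710% to 0.0135%, and in EEF1A1, the elongation factor that carries transfer RNA, at 0.0130% to 0.0321%. EIF3I, YBX1 and FTH1, the ferritin heavy chain, had at most 0.0802%. PMEL, C1orf54 and CDNF, with high start shares above, lie below that sum, at means of 569, 130.5 and 93.6 counts.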

How the data were processed

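RNA sequencing of K562 cells was analysed in 12 libraries, 3 in each of 4 groups taken from the genotype labels. The deposited values are raw counts of reads per exon bin, as the files show. The submitters' processing notes name Trimmomatic 0.93, STAR 2.7.10a and GRCh38, and DEXSeq, named in the design text, was not run here. The counting tool, its strand setting and its annotation release are not given in the sources used here, so reads of overlapping antisense genes cannot be told apart. Rows for reads outside bins, of low quality or ambiguous entered neither library sizes nor tests, and held 29.5% to 32.8%, 4.46% to 10.5% and 0.0155% to 0.0225% of a file.

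From these counts, bins of minus-strand genes were counted from the last bin, shares were computed per gene and library, and coordinates were rebuilt from GENCODE 29 in the 5718 genes with equal bin numbers. Each gene's first-10% sum was set against its rest with edgeR 4.0.16 (R 4.3.3), and single bins with diffSpliceDGE over all bins past filterByExpr at a minimum count of 10, at an adjusted p of 0.05 (Benjamini-Hochberg). Library values were tested by exact permutation with scipy 1.17.1. DESeq2 1.42.0, other scalings, filters, widths and left-out libraries were alternatives. The scripts were tested on simulated data.

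The members and lists were chosen with earlier results of these data known. Genes were named by rule: those passing the per-gene test, else the 5 with the smallest p, MYB and its neighbours, and from each list those that passed or the 2 deepest. Single bins were named after the tests were seen: the 12 with the smallest p at a mean count of 50 or more, 1 per gene (1 of them is not reported here), all called bins of the lists, and the bins called higher. Start shares were ordered among genes with a mean sum of at least 1000. Replicate numbers did not pair the libraries. Within groups, counts differed by more than sampling noise (chi-square over df 2.93 to 10.2).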

Additional observations from a re-analysis of the deposited data

How the results depend on the processing

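The 34kn difference in median share stayed below 0 in every setting, from -0.476 to -1.66 percentage points, and from -1.11 to -0.411 with 1 library left out. The 34kp difference, -0.000474, changed sign with the pooled share (0.0184), the mean of shares (0.156), the first 5% of bins (0.0384), the first 20% (0.0343), the first 10% of exonic bases (0.299) and count minimums of 5 (0.0195) and 50 (0.0348), and ran from -0.213 to 0.195 with 1 library left out. The 34kp log2 first-to-last ratio ran from -0.15 to 0.10 the same way. Genes passing went from 0 to 3 with 34kn by DESeq2, and to 1 with 34kp at the first 20%. Between controls they went to 69 by DESeq2, 5 at a count minimum of 50, 3 at the first 20%, 8 with the library-wide shift removed (chosen after seeing the data), and 0 to 6 with 1 library left out. Member bins passing ran from 51 to 1040 with 34kn, 0 to 13 with 34kp and 102 to 1149 between controls with 1 library left out. With 34kn the ends were 0.789% of tested members against 0.158% of all bins, and 15.9% against 3.74%. With 34kp the 13 were 0.2% against 0.0262%. Between controls the ends were 1.55% against 0.822% and 17.3% against 4.31%. The causes were not tested.

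With the library-wide shift removed, 34kn values turned positive for NFE2 (0.30), HNRNPA1 (0.28), RPS24 (0.30), SLC25A37 (0.0625), RPS14 (0.31), INTS1 (0.19), MAT2A (0.0674) and POLR2A (0.16). At the first 20% they did for RPS24 (0.0364) and INTS1 (0.0233), as did the 34kp value of AHI1 (0.0039). With 1 library left out, 34kn values ran from -0.0705 to 0.0218 for NFE2, -0.18 to 0.12 for HNRNPA1, -0.0454 to 0.0147 for RPS24, -0.22 to 0.21 for RPS14 and -0.0198 to 0.41 for MED12. The 34kp values ran from -0.40 to 0.0768 for MYB, -1.16 to 0.40 for AHI1 and -0.31 to 0.20 for MYB bin 4.

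Same-numbered libraries did not deviate together (correlations of gene sums -0.225 to -0.0197 with 34kn and -0.691 to 0.0396 with 34kp), and 0 and 1 of 6 libraries correlated best with their own number. With the replicate block 0 genes passed in each comparison, and 258 member bins with 34kn and 1 with 34kp. Bins near 10 counts limit what a single bin can show.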
